A study of Homo sapiens with 6 samples.

Results

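Glycolysis and hypoxia genes were measured after stable over-expression of single tRNA genes in MDA-MB-231, a cell line established from a triple-negative breast tumour. The set was a given list of 37 genes, 17 enzymes of glycolysis and 20 further genes, most of them known targets of the hypoxia-inducible factors (HIF). A gene counted as measured where a probe annotated to it alone was detected on 2 or more of the 6 Illumina BeadChip arrays, with a detection p below 0.01, and its brightest such probe stood for it. By this rule 34 of the 37 genes were measured, among 10877 genes in all, with 17 of the 17 enzymes and 17 of the 20 others. The 3 groups of 2 arrays each were mock-transfected control cells, cells over-expressing the Glu-TTC tRNA locus (the tRNA-Glu line) and cells over-expressing the Arg-CCG tRNA locus (the tRNA-Arg line). All 6 samples were the same cell line, grown in DMEM with serum, glutamine and sodium pyruvate, and the labels name no low-oxygen treatment. The labels do not say whether a line was 1 clone, nor whether the arrays within a group stem from separate cultures, and p-values therefore reflect nothing beyond the scatter between these arrays, which could be technical.

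Glycolysis splits glucose into pyruvate in the cytosol, and lactate dehydrogenase turns pyruvate into lactate. When oxygen is scarce, prolyl hydroxylases of the EGLN family stop marking the HIF alpha subunits for destruction by the VHL ubiquitin ligase. HIF then binds a short DNA core, the hypoxia response element, at genes for glucose uptake, glycolysis, blood vessel growth, mitophagy and collagen processing. Several steps are served by paralogs, of which some are widely expressed and others more strongly induced by hypoxia, and cancer cells often run glycolysis at a high rate even with oxygen present.

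Of the 3 genes not measured by this rule, SLC16A3, a lactate exporter, and CA9, a carbonic anhydrase, had no probe named for them in the annotation used. EGLN3, a prolyl hydroxylase, was detected at this threshold on 0 of 6 arrays, with non-normalized intensities between 39.6 and 53.1. Just inside the threshold lay MXI1, a repressor of the MYC network, whose probe was detected on both control arrays only, at 59.0 and 67.0 against 36.8 to 47.2 in the lines. MXI1 entered only through the group in which it was high, so it is kept out of the counts below. PDK1 was detected on 5 arrays and the remaining 32 genes on all 6.

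The arrays detected between 16650 and 17704 probes each, and the mesenchymal markers VIM, CD44, MSN, CAV1, EGFR and SPARC were detected on all 6. Of 6 luminal or hormone receptor markers, ESR1, PGR and CDH1 were detected on 0 arrays and GATA3 on 1, while ERBB2 and EPCAM were detected on all 6. Among blood cell markers PTPRC and CD3E were detected on 0 arrays, but 4 of the 6 with a probe were detected. The summed non-normalized intensity of the 6, of which CD68 was the brightest, was 1703 and 1992 on the control arrays. It was 2892 and 3082 on the tRNA-Arg arrays and 3872 and 4703 on the tRNA-Glu arrays, and its part in the results below was not tested. CD68, LAPTM5 and CSF1R were above control in both lines. CD14 differed from control on the log2 scale by -0.76 in the tRNA-Arg line and by 0.12 in the tRNA-Glu line. No fibroblast marker of 4 was detected on more than 1 array. In bulk RNA, fewer cells of a type and less RNA per cell cannot be told apart.

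Differences are given on the log2 scale of background-corrected and normalized intensity, as the named line minus control, ± SE, with 2 arrays per group. Adjusted p-values are Benjamini-Hochberg values from limma over all 10877 genes, and a gene is said to be higher or lower by test where this value was under 0.05. Both lines were compared with the same 2 control arrays, so their differences from control are not independent of each other. In the tRNA-Glu line 59.5% of all genes passed this test, 31.7% higher and 27.8% lower. Of all genes in the tRNA-Arg line 47.2% passed, 22.8% higher and 24.4% lower. The 2 arrays of a group lay wholly on one side of the 2 control arrays for 80.2% of all genes in the tRNA-Glu line and 74.6% in the tRNA-Arg line. A single called or separated member is thus common on these arrays, and the members' counts are read against these shares.

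The members outside the enzymes of glycolysis were mostly lower in the over-expression lines, and the enzymes were not. Of the 16 non-enzyme members counted, 10 were lower and 3 higher in the tRNA-Glu line, which is 62.5% lower against 27.8% of all genes. For the tRNA-Arg line 9 were lower and 2 higher, 56.2% lower against 24.4%. Their median difference was -0.36 in the tRNA-Glu line and -0.39 in the tRNA-Arg line, where the medians of all genes were 0.04 and -0.02. Without control replicate 2 the median of the other members was -0.25 in the tRNA-Glu line and -0.38 in the tRNA-Arg line. Without control replicate 1 it was -0.42 in each line. With MXI1 counted, the tRNA-Glu median was -0.47. It was then -0.55 without tRNA-Glu replicate 1, -0.36 without tRNA-Glu replicate 2 and -0.25 without background correction. The size of the tRNA-Glu shift thus depends on the arrays kept and on the processing. Of the 17 enzymes, 4 were higher and 4 lower in the tRNA-Glu line, with a median of 0.11, and 3 were higher and 3 lower in the tRNA-Arg line, with a median of 0.08. The enzymes' shares, 23.5% each way and 17.6% each way, lay below those of all genes. Arrays did not overlap with control for 15 of the 16 other members and 13 of the 17 enzymes in the tRNA-Glu line, and for 13 of each list in the tRNA-Arg line. With median scaling of the arrays in place of quantile normalization, 8 enzymes were higher and 3 lower in the tRNA-Glu line, with a median of 0.29. With that scaling 3707 of all 10877 genes were higher and 2727 lower, with a median of 0.08. The enzymes' higher share was then above that of all genes and their lower share below it. Fewer enzymes were called in the tRNA-Arg line without control replicate 2 or tRNA-Arg replicate 1, and so were fewer of all genes. The enzymes' median in that line was then 0.15 and 0.11, in that order. These counts describe the list, which was chosen with earlier results of the same arrays known, and carry no test of their own.

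**Figure D1:**
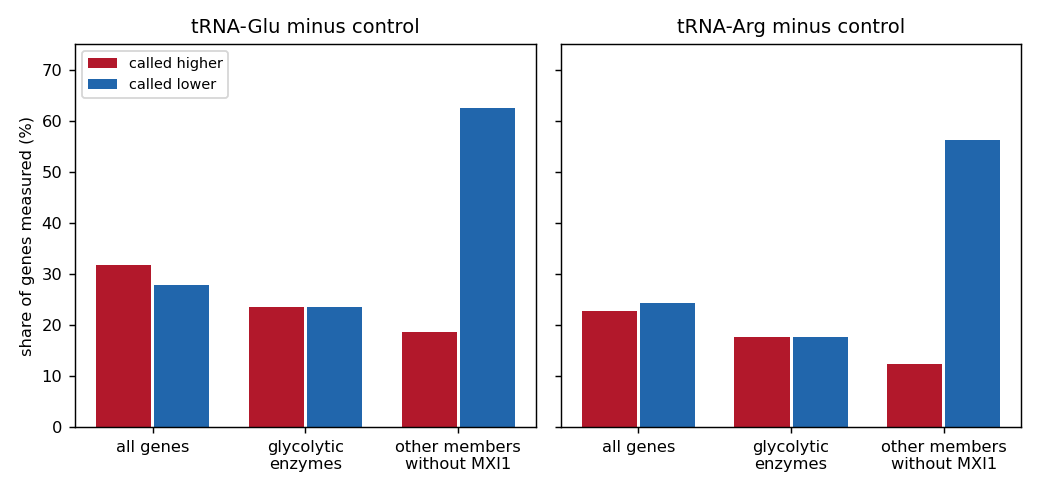
Share of genes called higher (red) or lower (blue) than control by limma at an adjusted p under 0.05, in percent of the genes measured, for all 10877 genes, the 17 glycolytic enzymes and the 16 other members without MXI1, in each line. The lower-called share of the other members was 62.5% in the tRNA-Glu line and 56.2% in the tRNA-Arg line.

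Among the non-enzyme members the lowest difference in each line was that of VEGFA, the main growth factor of blood vessels. Its log2 values were 9.27 and 9.24 on the control arrays, 8.18 and 8.07 on the tRNA-Arg arrays and 8.06 and 8.23 on the tRNA-Glu arrays. The control arrays stood above all 4 arrays of the lines, which overlapped with each other. VEGFA was 2.16-fold lower in the tRNA-Glu line (-1.11 ± 0.09, adjusted p = 7.43e-05) and 2.20-fold lower in the tRNA-Arg line (-1.13 ± 0.09, adjusted p = 1.14e-04). The lines themselves differed by 0.03, with a 95% interval of -0.18 to 0.23. A further probe of VEGFA was lower by the same measure, at -1.36 (tRNA-Glu) and -1.30 (tRNA-Arg).

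BNIP3 and BNIP3L, related outer-membrane receptors that mark mitochondria for mitophagy, were both lower. BNIP3L read 10.33 and 10.32 in control, 9.60 and 9.51 in the tRNA-Arg line and 9.27 and 9.42 in the tRNA-Glu line, with no overlap between any groups. It was 1.97-fold lower in the tRNA-Glu line (-0.98 ± 0.08, adjusted p = 1.04e-04) and 1.70-fold lower in the tRNA-Arg line (-0.76 ± 0.08, adjusted p = 4.94e-04), and its further probe gave -0.57 and -0.69. BNIP3 read 12.16 and 12.06 in control, 11.61 and 11.78 in the tRNA-Arg line and 11.40 and 11.50 in the tRNA-Glu line. Here too the control arrays were the highest and the tRNA-Glu arrays the lowest. Between the lines neither gene was called with the settings used. There tRNA-Glu minus tRNA-Arg was -0.21 for BNIP3L (adjusted p = 0.0811) and -0.25 for BNIP3 (adjusted p = 0.0683). Of the alternatives run, 2 gave a call for BNIP3L and 3 for BNIP3. The further probe of BNIP3L put the tRNA-Glu line above the tRNA-Arg line by 0.12. BNIP3 was 1.58-fold lower in the tRNA-Glu line (-0.66 ± 0.09, adjusted p = 8.15e-04) and 1.33-fold lower in the tRNA-Arg line (-0.41 ± 0.09, adjusted p = 0.00972). The tRNA-Arg call was lost with median scaling (-0.29, adjusted p = 0.0594), without control replicate 1 (-0.36, adjusted p = 0.054) and without tRNA-Arg replicate 1 (-0.32, adjusted p = 0.0591).

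The collagen prolyl hydroxylases, whose alpha subunits P4HA1 and P4HA2 let collagen fold into a stable triple helix, moved apart in the tRNA-Glu line. P4HA1 read 11.20 and 11.22 in control, 10.45 and 10.44 in the tRNA-Arg line and 10.43 and 10.39 in the tRNA-Glu line. All 4 arrays of the lines lay close together and well under control, with a 1.75-fold fall in the tRNA-Glu line (-0.81 ± 0.07, adjusted p = 1.20e-04) and a 1.70-fold fall in the tRNA-Arg line (-0.77 ± 0.07, adjusted p = 2.51e-04). P4HA2 read 9.0 and 9.08 in control, 9.22 and 9.15 in the tRNA-Arg line and 9.62 and 9.70 in the tRNA-Glu line. It was 1.53-fold higher in the tRNA-Glu line (0.61 ± 0.08, adjusted p = 5.59e-04), with 0.78 by a further probe, while the tRNA-Arg difference of 0.14 was not called (adjusted p = 0.184). The tRNA-Glu line exceeded the tRNA-Arg line by 0.47 ± 0.08 (adjusted p = 0.00429).

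NDRG1, a stress-responsive growth suppressor, stood lowest in the tRNA-Arg line. It read 10.82 and 10.79 in control, 9.97 and 10.03 in the tRNA-Arg line and 10.48 and 10.63 in the tRNA-Glu line. The tRNA-Arg fall was 1.75-fold (-0.81 ± 0.08, adjusted p = 3.65e-04), and the tRNA-Glu line exceeded the tRNA-Arg line by 0.56 ± 0.08 (adjusted p = 0.00285). The smaller tRNA-Glu fall (-0.25 ± 0.08, adjusted p = 0.0329) was lost with median scaling (-0.09, adjusted p = 0.366), without control replicate 1 (-0.24) or 2 (-0.27) and without tRNA-Glu replicate 1 (-0.18).

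KDM3A, a histone H3 lysine demethylase, read 8.46 and 8.48 in control, 8.15 and 7.93 in the tRNA-Arg line and 7.86 and 7.84 in the tRNA-Glu line. It was 1.54-fold lower in the tRNA-Glu line (-0.62 ± 0.09, adjusted p = 0.00101) and 1.35-fold lower in the tRNA-Arg line (-0.43 ± 0.09, adjusted p = 0.00756). ANKRD37, an ankyrin repeat protein, read 7.54 and 7.60 in control, 7.24 and 7.19 in the tRNA-Arg line and 7.26 and 7.39 in the tRNA-Glu line. Its falls were smaller, -0.25 ± 0.08 in the tRNA-Glu line (adjusted p = 0.0327) and -0.36 ± 0.08 in the tRNA-Arg line (adjusted p = 0.00986). The tRNA-Glu call was lost without control replicate 1 (-0.28) or 2 (-0.22) or tRNA-Glu replicate 1 (-0.18), and the tRNA-Arg call without tRNA-Arg replicate 2 (-0.33, adjusted p = 0.0522). MXI1 was not above background in the lines, at least 1.27-fold under control (tRNA-Glu) and at least 1.32-fold under it (tRNA-Arg), given as a description because detection in control alone brought it in.

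A further 3 HIF targets were called lower in neither line. ADM, the vasodilator peptide adrenomedullin, read 11.94 and 11.95 in control, 12.22 and 12.16 in the tRNA-Arg line and 11.91 and 11.87 in the tRNA-Glu line. It was higher in the tRNA-Arg line (0.25 ± 0.07, adjusted p = 0.029), a call lost when any of the 4 arrays compared was left out (0.21 to 0.28), and was not called in the tRNA-Glu line (-0.06, adjusted p = 0.54). EGLN1, the main oxygen-sensing prolyl hydroxylase, differed from control by -0.11 in the tRNA-Glu line (95% interval -0.40 to 0.18) and by 0.05 in the tRNA-Arg line (-0.23 to 0.34). ERO1A, an oxidase of the endoplasmic reticulum that forms disulfide bonds, differed by -0.11 (-0.39 to 0.17) and 0.22 (-0.06 to 0.50). Neither gene was called in either line.

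**Figure D2:**
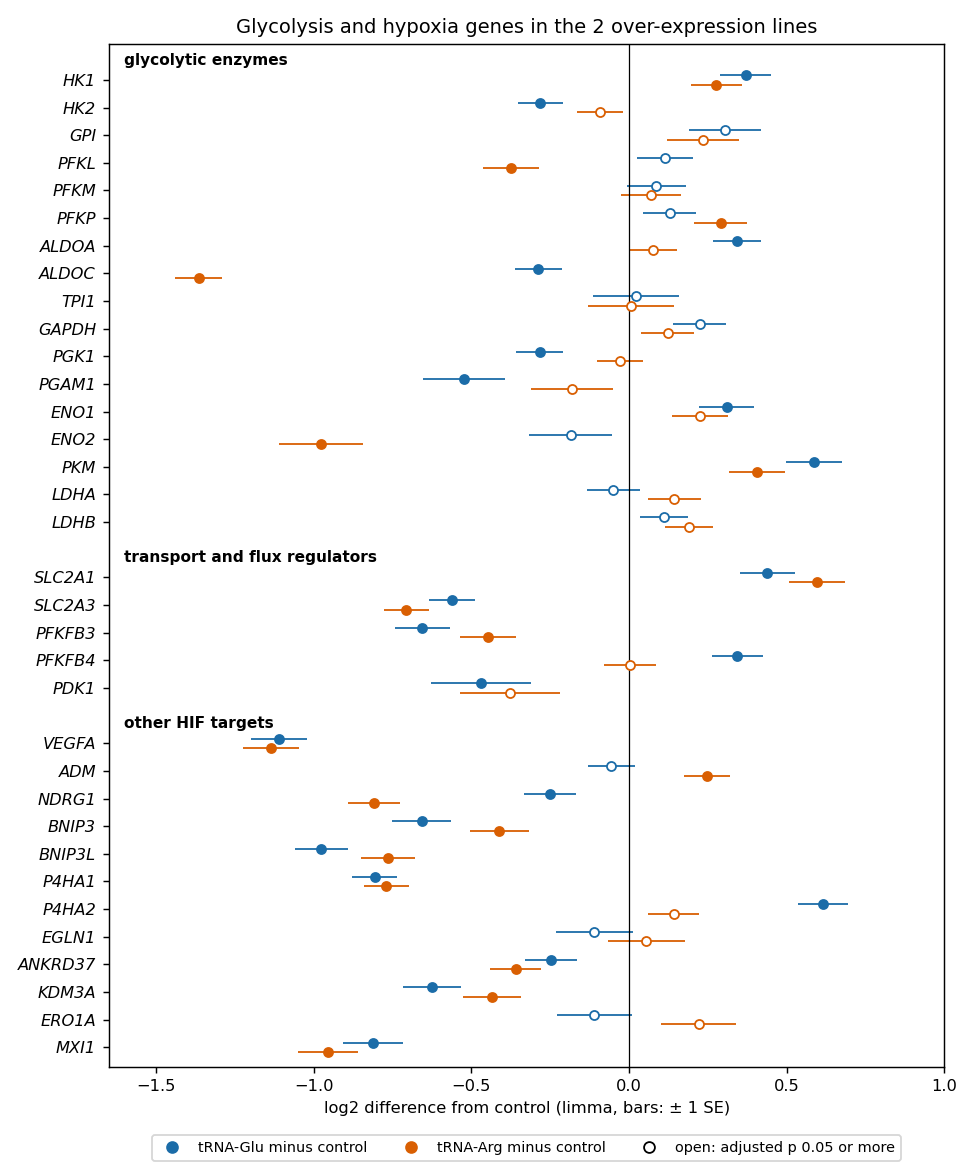
Log2 difference from control of each measured member in the tRNA-Glu line (blue) and the tRNA-Arg line (orange), points with ± 1 SE from limma, filled where the adjusted p was under 0.05 and open otherwise. VEGFA lies near -1.1 in both lines, and the lowest point is ALDOC in the tRNA-Arg line at -1.37.

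At the entry of glucose the 2 facilitative transporters moved in opposite directions. SLC2A1 (GLUT1), the widely expressed transporter, read 10.45 and 10.40 in control, 10.95 and 11.08 in the tRNA-Arg line and 10.79 and 10.93 in the tRNA-Glu line. It was 1.51-fold higher in the tRNA-Arg line (0.60 ± 0.09, adjusted p = 0.00161) and 1.36-fold higher in the tRNA-Glu line (0.44 ± 0.09, adjusted p = 0.00409). SLC2A3 (GLUT3), best known as the neuronal transporter, read 10.28 and 10.27 in control, 9.58 and 9.56 in the tRNA-Arg line and 9.71 and 9.72 in the tRNA-Glu line. It was 1.63-fold lower in the tRNA-Arg line (-0.71 ± 0.07, adjusted p = 3.55e-04) and 1.48-fold lower in the tRNA-Glu line (-0.56 ± 0.07, adjusted p = 5.19e-04). For both transporters the 2 control arrays lay on one side of all 4 arrays of the lines.

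The regulators of flux split as well. PFKFB3, a bifunctional enzyme that mainly makes fructose 2,6-bisphosphate, the activator of phosphofructokinase, read 10.70 and 10.71 in control, 10.34 and 10.18 in the tRNA-Arg line and 9.99 and 10.11 in the tRNA-Glu line. It was 1.57-fold lower in the tRNA-Glu line (-0.65 ± 0.09, adjusted p = 6.49e-04) and 1.36-fold lower in the tRNA-Arg line (-0.45 ± 0.09, adjusted p = 0.00561). A further, dimmer probe of PFKFB3 gave smaller falls, -0.29 (tRNA-Glu) and -0.21 (tRNA-Arg), and its tRNA-Arg arrays overlapped control. Its paralog PFKFB4 read 9.36 and 9.36 in control, 9.41 and 9.32 in the tRNA-Arg line and 9.64 and 9.77 in the tRNA-Glu line. PFKFB4 was higher in the tRNA-Glu line (0.34 ± 0.08, adjusted p = 0.00889) and lay at control level in the tRNA-Arg line (0.00, 95% interval -0.19 to 0.19). The tRNA-Glu call was lost without tRNA-Glu replicate 2 (0.28, adjusted p = 0.0589). PDK1, which inhibits pyruvate dehydrogenase, read 5.17 and 5.64 in control, 4.98 and 5.07 in the tRNA-Arg line and 5.05 and 4.81 in the tRNA-Glu line. Its fall in the tRNA-Glu line (-0.47 ± 0.16, adjusted p = 0.035) rested on single arrays: it was -0.23 without control replicate 2, -0.36 without tRNA-Glu replicate 2 and -0.72 without control replicate 1, and the call was also lost without tRNA-Arg replicate 2 (-0.47, adjusted p = 0.0505) and without the filter on detection (adjusted p = 0.0722). PDK1 differed in the tRNA-Arg line by -0.38 (adjusted p = 0.0875), but by -0.62 without control replicate 1 (adjusted p = 0.0139), by -0.14 without control replicate 2 (adjusted p = 0.427) and by -0.43 with median scaling (adjusted p = 0.0236).

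**Figure D3:**
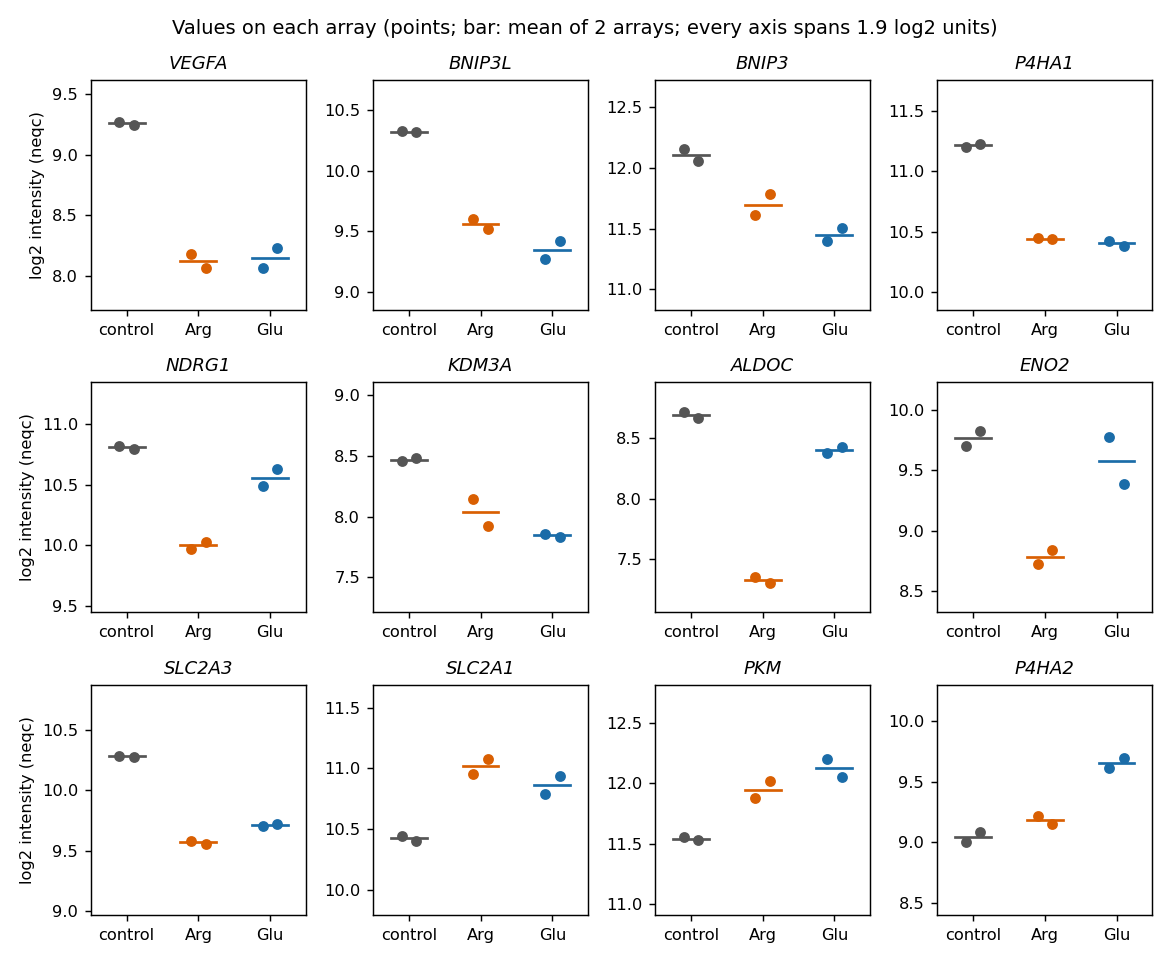
Log2 intensity on each of the 6 arrays for 12 members, control in grey, tRNA-Arg in orange and tRNA-Glu in blue, with a bar at the mean of the 2 arrays of a group. Control lies above all 4 arrays of the lines for VEGFA, BNIP3L, BNIP3, P4HA1, NDRG1, KDM3A, ALDOC and SLC2A3, and below them for SLC2A1, PKM and P4HA2.

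Among the enzymes, the largest differences were in ALDOC and ENO2, forms of aldolase and enolase known from brain and neurons, and both were mainly low in the tRNA-Arg line. ALDOC read 8.72 and 8.67 in control, 7.35 and 7.30 in the tRNA-Arg line and 8.38 and 8.43 in the tRNA-Glu line. It was 2.58-fold lower in the tRNA-Arg line (-1.37 ± 0.07, adjusted p = 2.68e-05), and the tRNA-Glu line exceeded the tRNA-Arg line 2.11-fold (1.08 ± 0.07, adjusted p = 6.12e-04). The tRNA-Glu fall from control was small (-0.29 ± 0.07, adjusted p = 0.0127) and the call was lost when control replicate 1 (-0.26) or tRNA-Glu replicate 1 (-0.26) was left out. ENO2 read 9.70 and 9.83 in control, 8.73 and 8.84 in the tRNA-Arg line and 9.77 and 9.38 in the tRNA-Glu line. It was 1.97-fold lower in the tRNA-Arg line (-0.98 ± 0.13, adjusted p = 0.00112) and 1.73-fold higher in the tRNA-Glu than in the tRNA-Arg line (0.79 ± 0.13, adjusted p = 0.00408). The tRNA-Glu arrays overlapped control, and that difference was not called (-0.19, adjusted p = 0.261), though it was without tRNA-Glu replicate 1 (-0.38, adjusted p = 0.0293).

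The widely expressed paralogs at the same steps, by the probes used, were called lower in neither line. ENO1 read 13.59 and 13.56 in control, 13.77 and 13.84 in the tRNA-Arg line and 13.98 and 13.80 in the tRNA-Glu line. It was higher in the tRNA-Glu line (0.31 ± 0.09, adjusted p = 0.0178), a call lost with cyclic loess (0.20), without either control replicate (0.30 and 0.29) and without tRNA-Glu replicate 1 (0.24). ENO1 was not called in the tRNA-Arg line (0.22, adjusted p = 0.0698). ALDOA, by its brightest probe, read 10.94 and 10.96 in control, 10.99 and 11.07 in the tRNA-Arg line and 11.30 and 11.28 in the tRNA-Glu line, which put it higher in the tRNA-Glu line (0.34 ± 0.08, adjusted p = 0.00606). A dimmer probe of ALDOA, at 8.65 and 8.69 in control, was lower in the tRNA-Glu line by -0.50, and the mean of these probes gave -0.081 (adjusted p = 0.345), so the direction for ALDOA depends on the probe.

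PKM, pyruvate kinase of muscle type and the last step of glycolysis before lactate, rose in both lines. It read 11.55 and 11.53 in control, 11.88 and 12.02 in the tRNA-Arg line and 12.20 and 12.05 in the tRNA-Glu line. The rise was 1.5-fold in the tRNA-Glu line (0.59 ± 0.09, adjusted p = 0.00113) and 1.33-fold in the tRNA-Arg line (0.41 ± 0.09, adjusted p = 0.00855), the latter lost without tRNA-Arg replicate 2 (0.33, adjusted p = 0.0537). Its other probes gave 0.60 and 0.35 in the tRNA-Glu line and 0.45 and 0.27 in the tRNA-Arg line. The probes are annotated to the gene alone, so splice forms of PKM were not told apart.

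Hexokinases, which trap glucose by phosphorylation, also parted by paralog in the tRNA-Glu line. HK1, the constitutive form, read 12.14 and 12.09 in control, 12.46 and 12.32 in the tRNA-Arg line and 12.47 and 12.49 in the tRNA-Glu line. It was higher in the tRNA-Glu line (0.37 ± 0.08, adjusted p = 0.00579) and in the tRNA-Arg line (0.28 ± 0.08, adjusted p = 0.026), where the call was lost without control replicate 1 (0.29) or 2 (0.25) or tRNA-Arg replicate 1 (0.21). HK2, the form often raised in tumours, read 8.44 on both control arrays, 8.34 and 8.36 in the tRNA-Arg line and 8.18 and 8.14 in the tRNA-Glu line. It was lower in the tRNA-Glu line by its brighter probe (-0.28 ± 0.07, adjusted p = 0.0124), but its other probe gave 0.19 and the mean of both -0.04 (adjusted p = 0.681), and the call was lost without tRNA-Glu replicate 2 (-0.26). HK2 was not called in the tRNA-Arg line (-0.09, adjusted p = 0.33).

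Of the phosphofructokinases, which catalyse the committed step, PFKL (liver type) was lower in the tRNA-Arg line and PFKP (platelet type) higher. PFKL read 7.84 and 7.91 in control, 7.45 and 7.55 in the tRNA-Arg line and 7.91 and 8.06 in the tRNA-Glu line. Its tRNA-Arg fall was -0.37 ± 0.09 (adjusted p = 0.0117), lost without control replicate 2 (-0.34, adjusted p = 0.056) and tRNA-Arg replicate 1 (-0.32, adjusted p = 0.0642), and the tRNA-Glu line exceeded the tRNA-Arg line by 0.49 ± 0.09 (adjusted p = 0.00544). PFKP read 11.48 and 11.53 in control, 11.77 and 11.82 in the tRNA-Arg line and 11.56 and 11.71 in the tRNA-Glu line. It differed by 0.29 ± 0.08 in the tRNA-Arg line (adjusted p = 0.0255), a call lost when any of the 4 arrays compared was left out (0.26 to 0.32). PFKM (muscle type) differed from control by 0.09 (95% interval -0.13 to 0.31) in the tRNA-Glu line and 0.07 (-0.15 to 0.29) in the tRNA-Arg line.

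In the later steps, PGAM1, which moves the phosphate of phosphoglycerate, read 10.24 and 10.64 in control, 10.20 and 10.32 in the tRNA-Arg line and 9.89 and 9.94 in the tRNA-Glu line. The control arrays differed from each other nearly as much as the groups did. PGAM1 was lower in the tRNA-Glu line (-0.52 ± 0.13, adjusted p = 0.0107), by -0.33 without control replicate 2, and its dimmer probe gave -0.36. PGK1, the first ATP-yielding step, read 11.93 and 11.99 in control, 11.94 and 11.92 in the tRNA-Arg line and 11.65 and 11.70 in the tRNA-Glu line. It was lower in the tRNA-Glu line (-0.28 ± 0.07, adjusted p = 0.013), but the difference was -0.03 with median scaling and -0.16 with the mean of its probes, and the call was also lost when control replicate 2 (-0.25) or tRNA-Glu replicate 1 (-0.27) was left out. Between the lines PGK1 was lower in the tRNA-Glu line (-0.25 ± 0.07, adjusted p = 0.0288), a call lost when any of the 4 arrays compared was left out (-0.28 to -0.24), with median scaling (-0.12, adjusted p = 0.234) and with the mean of its probes (-0.19, adjusted p = 0.0768).

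GPI, TPI1, GAPDH, LDHA and LDHB were called in neither line with the settings used. Their 95% intervals in the tRNA-Glu line were 0.04 to 0.57 for GPI, -0.30 to 0.34 for TPI1, 0.02 to 0.42 for GAPDH, -0.25 to 0.15 for LDHA and -0.07 to 0.29 for LDHB. In the tRNA-Arg line they were -0.03 to 0.50 for GPI, -0.31 to 0.32 for TPI1, -0.08 to 0.32 for GAPDH, -0.05 to 0.34 for LDHA and 0.01 to 0.37 for LDHB. Each interval thus leaves room for a change of some size. LDHA makes lactate from pyruvate, and GAPDH, an enzyme of the middle of the pathway, is often used as a reference gene. GAPDH read 12.96 and 13.01 in control, 13.15 and 13.06 in the tRNA-Arg line and 13.14 and 13.27 in the tRNA-Glu line. With median scaling GAPDH (0.50, adjusted p = 0.00715), GPI (0.43, adjusted p = 0.0168) and LDHB (0.35, adjusted p = 0.00762) were called higher in the tRNA-Glu line, and LDHB (0.31, adjusted p = 0.018) in the tRNA-Arg line. Over all alternatives run, the tRNA-Glu call was gained in 7 for GPI, 5 for GAPDH and 1 for LDHB, and the tRNA-Arg call in 1 for GPI and 2 for LDHB. TPI1 and LDHA gained no call against control in any of them.

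Of the 34 members, 12 had at least 1 further kept probe, 15 such probes in all. Beside the genes called in the tRNA-Glu line, 8 of 10 further probes had the sign of the probe used, the exceptions being ALDOA and HK2. In the tRNA-Arg line 5 of 5 had that sign.

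**Figure D4:**
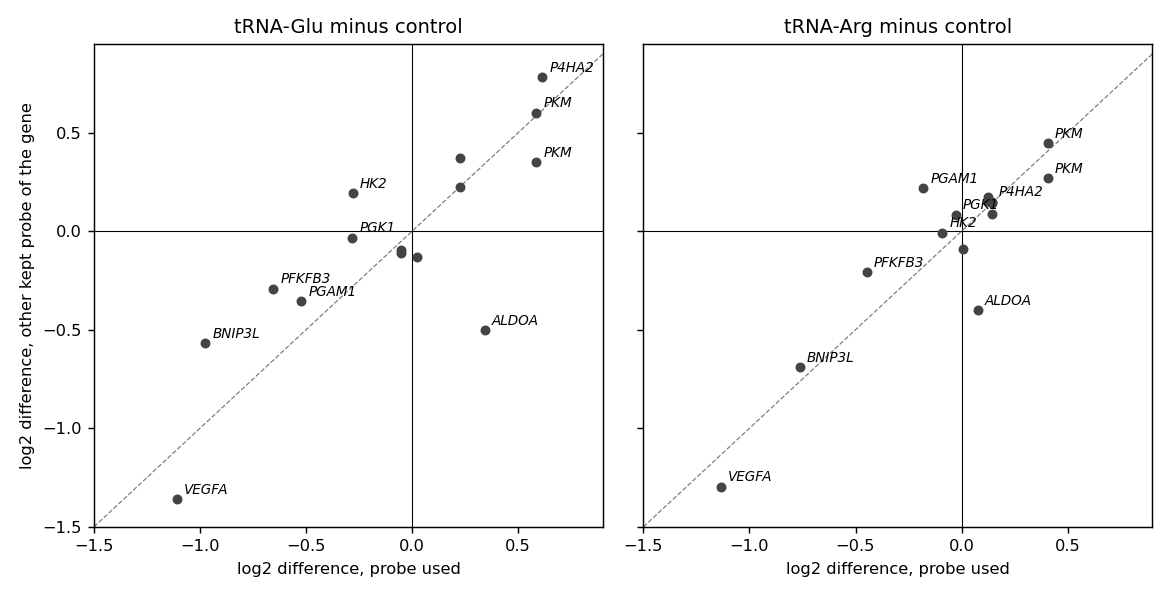
Log2 difference from control by the probe used for a gene (horizontal) and by each other kept probe of the same gene (vertical), in the tRNA-Glu line and the tRNA-Arg line; the dashed line marks equal values. ALDOA lies in the lower right quadrant of both panels, and VEGFA lies near the dashed line at the lower left.

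Between the lines, 42.6% of all genes were called, 24.3% higher in the tRNA-Glu line and 18.2% higher in the tRNA-Arg line, and the arrays of the lines did not overlap for 74.1%. Of the 17 enzymes 4 were higher in the tRNA-Glu line and 1 lower, and of the 16 other members 3 were higher and 1 lower, shares below those of all genes except for the enzymes' 23.5% higher, which was near it. The enzymes were ALDOC, ENO2, PFKL and ALDOA against PGK1. The call of ALDOA (0.27) was lost without any of the 4 arrays compared and with the mean of its probes (0.08). The other members were NDRG1, P4HA2 and PFKFB4 against ADM. PFKFB4 (0.34 ± 0.08, adjusted p = 0.0148) lost its call without tRNA-Arg replicate 2 (0.30) and tRNA-Glu replicate 2 (0.28), and ADM (-0.30 ± 0.07, adjusted p = 0.0158) without tRNA-Arg replicate 1 (-0.27), without tRNA-Glu replicate 2 (-0.28) and with median scaling (-0.19). Other members gained a call over the alternatives run, most often PGAM1 (-0.34, in 7) and ERO1A (-0.33, in 6). BNIP3 gained one in 3, BNIP3L and LDHA in 2 each, and HK2, PFKFB3 and PKM in 1 each. With median scaling 5 enzymes were higher and 0 lower in the tRNA-Glu line, and with cyclic loess 4 and 2. For the other members these counts were 3 and 0, and 3 and 3. For all 10877 genes they were 2712 and 1793, and 2444 and 2218. Fewer enzymes were called between the lines when any of the 4 arrays was left out, and so were fewer of all genes. The enzymes' median was then between 0.001 and 0.05, against 0.07 with all arrays. Fewer of the other members were called without tRNA-Glu replicate 2.

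The promoters of the members were searched for the core of the hypoxia response element. Its letters were ACGTG or GCGTG on the strand of the gene, or CACGT or CACGC where the core lies on the opposite strand, and the palindrome CACGTG counts as 2 overlapping matches. Windows were the 250 bases before the start of each gene in RefSeq on build GRCh38.p14, found for 30 of the 34 members and not for SLC2A3, VEGFA, NDRG1 and BNIP3L. At least 1 core lay in 10 of 17 windows of enzymes (58.8%) and in 9 of 12 of other members without MXI1 (75%), against 57.9% of the 8854 windows of genes tested on the arrays and 43.1% of all 27305 windows. The ACGTG form was in 8 of 17 (47.1%) and 5 of 12 (41.7%), against 23.9% and 18.7%. Of the members called lower in the tRNA-Arg line 8 of 8 windows held a core and of those called higher 1 of 5, and in the tRNA-Glu line 8 of 10 and 3 of 7. A match describes the letters only, and no comparison is drawn from these counts.

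The stretches printed here, 60 bases each, end 15 bases past the core nearest to the gene start, and capitals mark every core. They show 4 HIF targets that were lower in the lines (BNIP3, ANKRD37, P4HA1 and KDM3A), the 2 enzymes that were lowest in the tRNA-Arg line (ALDOC and ENO2) and 2 enzymes whose windows hold several cores but which were not called lower in the tRNA-Arg line (PGK1 and LDHA).
ALDOC, chr17:28576904-28576963, minus strand: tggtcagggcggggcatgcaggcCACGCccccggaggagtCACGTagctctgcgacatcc
ANKRD37, chr4:185396658-185396717, plus strand: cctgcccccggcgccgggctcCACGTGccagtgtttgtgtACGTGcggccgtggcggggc
BNIP3, chr10:131982008-131982067, minus strand: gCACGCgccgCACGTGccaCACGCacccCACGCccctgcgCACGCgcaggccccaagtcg
ENO2, chr12:6914422-6914481, plus strand: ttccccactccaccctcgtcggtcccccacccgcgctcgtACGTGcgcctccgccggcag
KDM3A, chr2:86441305-86441364, plus strand: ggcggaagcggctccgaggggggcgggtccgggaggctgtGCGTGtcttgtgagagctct
LDHA, chr11:18394450-18394509, plus strand: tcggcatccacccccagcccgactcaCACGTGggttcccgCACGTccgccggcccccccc
P4HA1, chr10:73096933-73096992, minus strand: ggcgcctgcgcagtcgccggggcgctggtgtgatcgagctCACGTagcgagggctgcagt
PGK1, chrX:78104025-78104084, plus strand: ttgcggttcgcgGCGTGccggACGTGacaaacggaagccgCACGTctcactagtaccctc
BNIP3 held 6 cores in its 250 bases, ALDOC and LDHA 5 each, and ANKRD37 and PGK1 3 each. P4HA1, KDM3A and ENO2 held 1 each. LDHA, with 5 cores of the ACGTG form, was not called in either line, and ALDOC, with 3 of that form, had the lowest difference of all members. PKM, HK1 and SLC2A1, which were higher in the lines, had 0 cores in this window. PFKM, TPI1 and LDHB, called in neither line with the settings used, also had 0. GPI and EGLN1 held 1 core each and GAPDH and ERO1A 2 each, and none of these was called in either line. ENO1 held 2 cores and ALDOA and PFKFB4 1 each, and by the probes used these were called higher in the tRNA-Glu line. ADM held 1 and was called higher in the tRNA-Arg line. PGAM1 and PDK1, called lower in the tRNA-Glu line, held 0. Whether the cores bear on the differences was not tested.

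The factors that act above these genes were read from a list of 15 HIF subunits and regulators, of which 13 were measured. In the tRNA-Glu line 5 were higher (38.5%, against 31.7% of all genes) and 6 lower (46.2%, against 27.8%), with a median of -0.02. In the tRNA-Arg line 6 were higher (46.2%, against 22.8%) and 3 lower (23.1%, against 24.4%), with a median of 0.16. EPAS1 (HIF-2 alpha) read 9.64 and 9.51 in control, 8.76 and 8.76 in the tRNA-Arg line and 8.88 and 8.96 in the tRNA-Glu line. It was 1.76-fold lower in the tRNA-Arg line (adjusted p = 3.20e-04) and 1.57-fold lower in the tRNA-Glu line (adjusted p = 4.62e-04). EGLN2, another HIF prolyl hydroxylase, read 9.93 and 9.92 in control, 10.19 and 10.26 in the tRNA-Arg line and 10.82 and 10.94 in the tRNA-Glu line. It was 1.95-fold higher in the tRNA-Glu line (adjusted p = 8.95e-05) and 1.23-fold higher in the tRNA-Arg line (adjusted p = 0.0191). ARNT2, a partner of HIF alpha subunits best known from neurons, was 2.07-fold higher in the tRNA-Arg line (adjusted p = 8.84e-05) and 1.58-fold higher in the tRNA-Glu line (adjusted p = 3.19e-04).

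HIF1A and VHL were singled out after their values were seen. The HIF1A mRNA read 9.76 and 9.73 in control, 9.80 and 9.64 in the tRNA-Arg line and 9.39 and 9.42 in the tRNA-Glu line, a fall of -0.34 ± 0.08 in the tRNA-Glu line (adjusted p = 0.00987) and no call in the tRNA-Arg line (-0.03, adjusted p = 0.801). VHL mRNA was lower in the tRNA-Glu line (-0.53 ± 0.11, adjusted p = 0.00484) and in the tRNA-Arg line (-0.37 ± 0.11, adjusted p = 0.0282). HIF alpha subunits are set largely by protein stability, which mRNA arrays do not read.

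A further list of 29 known HIF targets, 26 of them measured, had 8 genes higher and 7 lower in the tRNA-Glu line, with a median of -0.05. These shares, 30.8% and 26.9%, were near the 31.7% and 27.8% of all genes. In the tRNA-Arg line 4 were higher and 11 lower, 15.4% against 22.8% and 42.3% against 24.4% of all genes, with a median of -0.03. DDIT4, an inhibitor of mTORC1 signalling, read 10.90 and 11.24 in control, 9.77 and 9.72 in the tRNA-Arg line and 10.31 and 10.34 in the tRNA-Glu line. It was 2.5-fold lower in the tRNA-Arg line (adjusted p = 1.69e-04) and 1.67-fold lower in the tRNA-Glu line (adjusted p = 0.0012). GBE1, the glycogen branching enzyme, was 1.86-fold lower in the tRNA-Glu line (adjusted p = 8.12e-05) and 1.33-fold lower in the tRNA-Arg line (adjusted p = 0.00361). LOX, which crosslinks collagen, was 1.83-fold higher in the tRNA-Glu line (adjusted p = 1.14e-04) and 1.9-fold higher in the tRNA-Arg line (adjusted p = 1.55e-04).

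Of 16 other genes of glycolysis, 8 were measured, with 4 higher and 4 lower in the tRNA-Glu line (50% each, against 31.7% and 27.8% of all genes) and 3 higher and 2 lower in the tRNA-Arg line (37.5% and 25%, against 22.8% and 24.4%). FBP1, the gluconeogenic enzyme that reverses the phosphofructokinase step, differed most. It read 6.49 and 6.48 in control, 8.35 and 8.40 in the tRNA-Arg line and 8.20 and 8.38 in the tRNA-Glu line. This was 3.70-fold higher in the tRNA-Arg line (1.89 ± 0.09, adjusted p = 1.38e-05) and 3.48-fold higher in the tRNA-Glu line (1.80 ± 0.09, adjusted p = 1.47e-05). HKDC1, a further hexokinase, was 1.93-fold higher in the tRNA-Glu line and 1.84-fold higher in the tRNA-Arg line (adjusted p = 1.66e-04 and 4.16e-04), and PFKFB2 was 1.57-fold and 1.42-fold lower (adjusted p = 5.69e-04 and 0.00282). Both genes were dim, near the level of PDK1, so their folds are less certain. HKDC1 read 4.86 and 4.95 in control, and PFKFB2 read between 5.03 and 5.77 over all arrays.

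Around pyruvate, 12 of 13 listed genes of pyruvate dehydrogenase and pyruvate transport were measured. One of them, PDK4, a further pyruvate dehydrogenase kinase, was detected in control only and is kept out of the counts. Of the remaining 11, in the tRNA-Glu line 2 were higher (18.2%, against 31.7% of all genes) and 3 lower (27.3%, against 27.8%), and in the tRNA-Arg line 1 was higher (9.09%, against 22.8%) and 2 lower (18.2%, against 24.4%). PDP1, the phosphatase that activates pyruvate dehydrogenase, was 1.84-fold lower in the tRNA-Glu line (adjusted p = 1.47e-04) and 1.20-fold lower in the tRNA-Arg line (adjusted p = 0.034). DLAT, the acetyltransferase subunit of that complex, was 1.79-fold lower in the tRNA-Glu line (adjusted p = 4.61e-04) and was not called in the tRNA-Arg line (-0.16, adjusted p = 0.235). BSG, the chaperone of lactate transporters, was 1.58-fold lower in the tRNA-Arg line (adjusted p = 9.18e-04) and was not called in the tRNA-Glu line (-0.23, adjusted p = 0.0531).

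Of 7 pentose phosphate genes 6 were measured, with 3 higher and 1 lower in the tRNA-Glu line (50% and 16.7%, against 31.7% and 27.8% of all genes) and 1 higher and 2 lower in the tRNA-Arg line (16.7% and 33.3%, against 22.8% and 24.4%). RPE, an epimerase of this pathway, was 2.28-fold lower in the tRNA-Glu line (adjusted p = 5.74e-05) and 1.34-fold lower in the tRNA-Arg line (adjusted p = 0.00729). TKT, transketolase, was 1.34-fold higher in the tRNA-Glu line (adjusted p = 0.00563) and was not called in the tRNA-Arg line (0.08, adjusted p = 0.507). TALDO1, transaldolase, was 1.25-fold higher in the tRNA-Glu line (adjusted p = 0.00708) and 1.16-fold higher in the tRNA-Arg line (adjusted p = 0.048).

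The direction of every difference above comes from the array labels. The authors' deposited table of fold changes, whose direction is not stated, lists 33 of the 34 measured members. Its sign was opposite to over-expression minus control for 21 of the 21 members in it that were called in the tRNA-Glu line and for 17 of 17 in the tRNA-Arg line, MXI1 included. That table also lists the members not measured here, with negative values for both lines. They were -0.71 (tRNA-Glu) and -0.19 (tRNA-Arg) for CA9, -0.52 and -0.22 for SLC16A3, and -0.11 and -0.09 for EGLN3. A negative value there was the sign of members called higher here, so none of these pointed lower in the lines.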

How the data were processed

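Total RNA was labelled with biotin and measured on Illumina BeadChip arrays, per the labels' protocols. The authors deposited, per array, the non-normalized intensity of 47323 probes with their detection p-values, per the file headers. The authors also deposited processed intensity values, whose quantiles are alike on all arrays, and a table with a fold-change score per gene symbol, of unstated log base and direction; the submitters' processing notes name lumi. The non-normalized values were background-corrected, quantile-normalized and taken to log2 by limma's neqc function (limma 3.58.1, R 4.3.3, offset 16). The detection filter (a value below 0.01 on 2 or more arrays) kept 18106 probes, of which 14337 had 1 named gene, giving 10877 genes. Symbols were updated by Entrez identifier through a RefSeq gene table. One limma fit covered the 3 groups, with 3 residual and 4.28 prior degrees of freedom. Where neither array of a group reached a detection p below 0.05, the probe was taken as not above background there, and its fold is a lower bound, against the lowest signal detected on the array or its own signal. The fit was tested on simulated data.

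The members and lists were chosen with earlier results of these data known. All measured members are named, and of each further list the up to 3 called genes of smallest unadjusted p. Same-numbered arrays did not deviate together (r between -0.05 and 0.02), so numbers were not taken as pairs. The number of arrays limits the precision. Alternatives covered background, normalization, the detection filter, the probe of a gene, the deposited processed values, the replicate number and each array left out. They are given for the members and for counts, not for the genes of the further lists. Calls near the threshold in those lists, such as TALDO1 in the tRNA-Arg line, may therefore be less firm than they read.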

Additional observations from a re-analysis of the deposited data

How the results depend on the processing

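Without background correction 8 of the other members were called between the lines, against 4, and 5199 of all genes, against 4630. With 1 array left out, the genes called between the lines ranged from 2603 to 4625, the enzymes called in the tRNA-Arg line from 3 to 6, the enzymes called between the lines from 3 to 6 and the other members called between the lines from 2 to 5. With 1 array of a group left, that array is assumed to vary like the others. ALDOA turned from 0.34 to -0.081 in the tRNA-Glu line with the mean of its probes. The cause of these shifts was not tested. With the replicate number as a block, 6351, 4884 and 4419 genes were called in the tRNA-Glu line, the tRNA-Arg line and between the lines, against 6474, 5137 and 4630, no member's call was lost, and PGAM1 gained one between the lines (-0.34, adjusted p = 0.0424). Under the block 8, 6 and 6 enzymes were called, against 8, 6 and 5, and with MXI1 counted 14, 12 and 4 other members, the same numbers as without the block. A fit with slide as a block was not run, since the headers name no slide. Dim members such as PDK1 and MXI1, near the detection limit, are the least certain. Of 1416 member values recomputed, 1312 kept their side of the threshold with no called value changing sign, 58 lost a call in the same direction, 45 gained one and 1 reversed.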
